A study of Mus musculus with 23 samples.

Results

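Genes of DNA replication were followed in *longissimus dorsi*, the long muscle of the back, and in tongue of mice that had flown on the Bion-M1 biosatellite and of 2 ground controls. The members were Mcm2, Mcm3, Mcm4, Mcm5, Mcm6 and Mcm7, which encode the ring of the replicative helicase, Dbf4, Pcna, Rrm1 and Rrm2. Every probe set that the platform annotation assigns to exactly 1 of these 10 genes was taken, which gave 24 probe sets of 22626 on the array, 16 of them for Mcm genes. A probe set is a group of short probes that together report 1 transcript. Mcm3 had 5 probe sets, Mcm7 had 4, Rrm2 had 3, Mcm2, Mcm4, Mcm6, Dbf4 and Rrm1 had 2 each, and Mcm5 and Pcna had 1 each. Where members that passed are counted below, each probe set counts apart, so several can belong to 1 gene and are not independent.

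The flown group (BF) spent 30 days in orbit, the animal facility group (FC) was housed in a standard facility during the flight, and the habitat group (BG) was housed on the ground in the habitat of the biosatellite. All were male C57/BL6 mice, the labels name no transgene or agent, and the flown mice were sampled within hours of landing, so that flight, landing and the first hours of reloading cannot be told apart. Tongue was measured on 3 BF, 2 FC and 3 BG arrays, and *longissimus dorsi* (LD) on 5 arrays in each group, 1 array per tissue sample. The labels do not tie a tongue to a back muscle of 1 mouse. All values are log2 expression per probe set as the authors deposited them, normalised with RMA over all 23 arrays, so a difference of 1 is a factor of 2. The array medians lay between 6.42 and 6.61, and single arrays deviated from their group means with an SD between 0.10 and 0.36, highest in BG LD replicate 5.

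DNA replication in a eukaryotic cell starts from origins on which the MCM complex, a ring of 6 related subunits, has been loaded as an inactive helicase during G1. Dbf4 is the regulatory subunit of the kinase Cdc7, which phosphorylates the loaded ring so that it can fire in S phase. Pcna is the sliding clamp that holds the polymerases on DNA and also serves in repair. Ribonucleotide reductase, built from the large subunit Rrm1 and the small subunit Rrm2, makes the deoxynucleotides, and Rrm2 is the subunit made mainly in S phase. Nuclei of muscle fibres do not divide, whereas the basal layer of the tongue epithelium renews itself throughout life.

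Many Mcm genes carry E2F sites in their promoters, the sequences through which the E2F factors switch on the genes of S phase. RefSeq promoter windows (GRCm38.p6, 250 bases before to 50 bases after the start of the gene) were at hand for 9 of the 10 genes, in 10 windows. They were searched on both strands for the words TTTCCCGC, TTTCGCGC, TTTGCCGC and TTTGGCGC, which can overlap each other on opposite strands. A word was held by the windows of Mcm3, Mcm5, Mcm6 and Mcm7, and by 2.26% of all 32851 windows. The word CCAAT, searched the same way, was held by the windows of 8 genes, all of the 9 but Dbf4, and by 37.4% of all windows. The windows of Mcm5 and Mcm6 are shown because these were the Mcm genes with the largest differences between tongue and LD. Capitals mark the E2F words, which start 153 bases before the start of Mcm5 and 110 and 47 bases before that of Mcm6. In both windows the first run of capitals is a pair of words on opposite strands that share bases.
Mcm5, chr8:75109259-75109558, plus strand: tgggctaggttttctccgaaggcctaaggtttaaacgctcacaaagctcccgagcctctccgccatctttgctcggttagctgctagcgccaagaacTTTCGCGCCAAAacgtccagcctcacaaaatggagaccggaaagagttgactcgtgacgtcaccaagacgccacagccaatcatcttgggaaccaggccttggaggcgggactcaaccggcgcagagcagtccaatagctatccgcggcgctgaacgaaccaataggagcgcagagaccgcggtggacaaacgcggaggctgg
Mcm6, chr1:128359656-128359955, minus strand: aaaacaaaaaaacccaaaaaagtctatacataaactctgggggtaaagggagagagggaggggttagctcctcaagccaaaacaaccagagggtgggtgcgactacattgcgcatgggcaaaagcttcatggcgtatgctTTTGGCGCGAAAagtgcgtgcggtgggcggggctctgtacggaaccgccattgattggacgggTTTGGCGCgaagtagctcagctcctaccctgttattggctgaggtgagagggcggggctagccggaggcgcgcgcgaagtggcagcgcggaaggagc

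**Figure D1:**
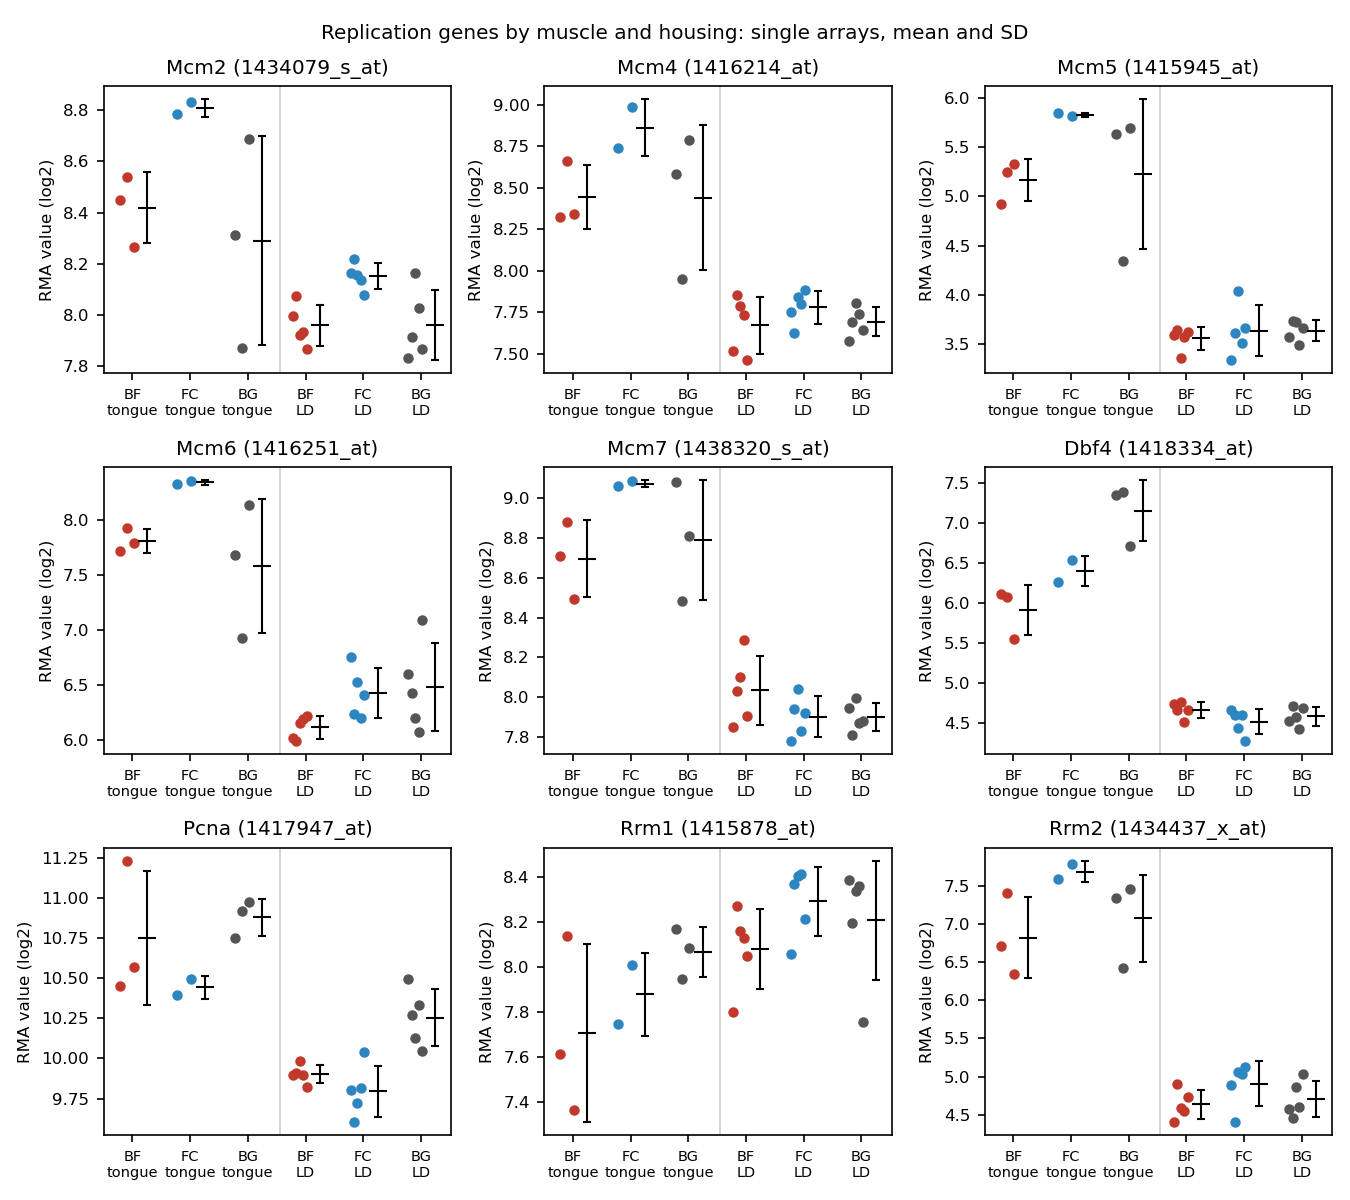
Log2 RMA values (vertical axes, each with its own range) of 9 probe sets, the brightest of each member gene except Mcm3, in BF, FC and BG tongue and in BF, FC and BG *longissimus dorsi* (LD). Points are single arrays and bars the mean and SD. Dbf4 stands between 5.55 and 6.11 in BF tongue and between 6.71 and 7.40 in BG tongue, while every LD array lies between 4.28 and 4.77.

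In tongue, flight was first set against the habitat control. Dbf4, the activator of Cdc7, was the only member that changed. Its probe set 1418334_at read 6.11, 6.08 and 5.55 in BF tongues, 6.27 and 6.54 in FC tongues, and 7.36, 7.40 and 6.71 in BG tongues. The 3 groups do not overlap, with BF lowest and BG highest. The share of all probe sets ordered without overlap over these groups was not counted. Dbf4 fell by 1.24 on the log2 scale in BF vs. BG (SE 0.164, limma adjusted p = 0.00111), to 0.423 of the BG level, which placed it second of all probe sets by p-value. The study had picked this probe set from these same arrays, so its call is not independent evidence of its direction. The second Dbf4 probe set, 1430545_at, was dim, with values between 3.17 and 3.73 in all tongue arrays, and its change was 0.20 (SE 0.176, adjusted p = 0.626).

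Of the 24 probe sets, 0 passed as higher and 1 as lower in tongue BF vs. BG at an adjusted p under 0.05. Over all probe sets 0.354% passed as higher and 0.473% as lower, and with a change of more than 2-fold in addition 1 member passed as lower, against 0.159% of all. The single member that passed corresponds to 4.17% of the members. The median change of the members was -0.11, against 0.02 over all probe sets, and 15 of the 24 changes were negative.

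The helicase genes gave small changes of either sign in BF vs. BG. Of the 16 Mcm probe sets 7 changes were positive and 9 negative, with a median of -0.08, and 0 passed. The lowest was that of Mcm4 1436708_x_at, -0.37 with a 95% interval from -0.90 to 0.16. The highest was that of Mcm6 1416251_at, 0.23 with an interval from -0.26 to 0.71, and without BG replicate 2 it was -0.10. Mcm5 gave -0.06, against 0.14 without BG replicate 1 and 0.17 without BG replicate 3. For Pcna 1417947_at the change was -0.13 (adjusted p = 0.748). Rrm1 1415878_at gave -0.36 (adjusted p = 0.331) and Rrm2 1448226_at -0.57 (adjusted p = 0.354), with an upper end of the interval at 0.03 for Rrm2. Without BF replicate 2, Rrm2 1448226_at passed, at -1.06 (adjusted p = 0.0152).

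The habitat tongues differed widely among themselves for the helicase genes. The mean over the 16 Mcm probe sets was 6.51, 6.78 and 6.48 in the BF tongues, 7.02 and 7.04 in the FC tongues, and 6.74, 6.25 and 6.92 in the BG tongues. BG replicate 2 was the lowest of its group for 14 of the 16 Mcm probe sets. For Mcm5 1415945_at it read 4.35, where the other BG tongues read 5.64 and 5.70. Without this array 15 of the 16 Mcm changes in BF vs. BG were negative, with a median of -0.25, and 0 passed. Dbf4 did not share this pattern, since BG replicate 2 held its highest value, and its change was -1.12 without that array (adjusted p = 0.014).

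**Figure D2:**
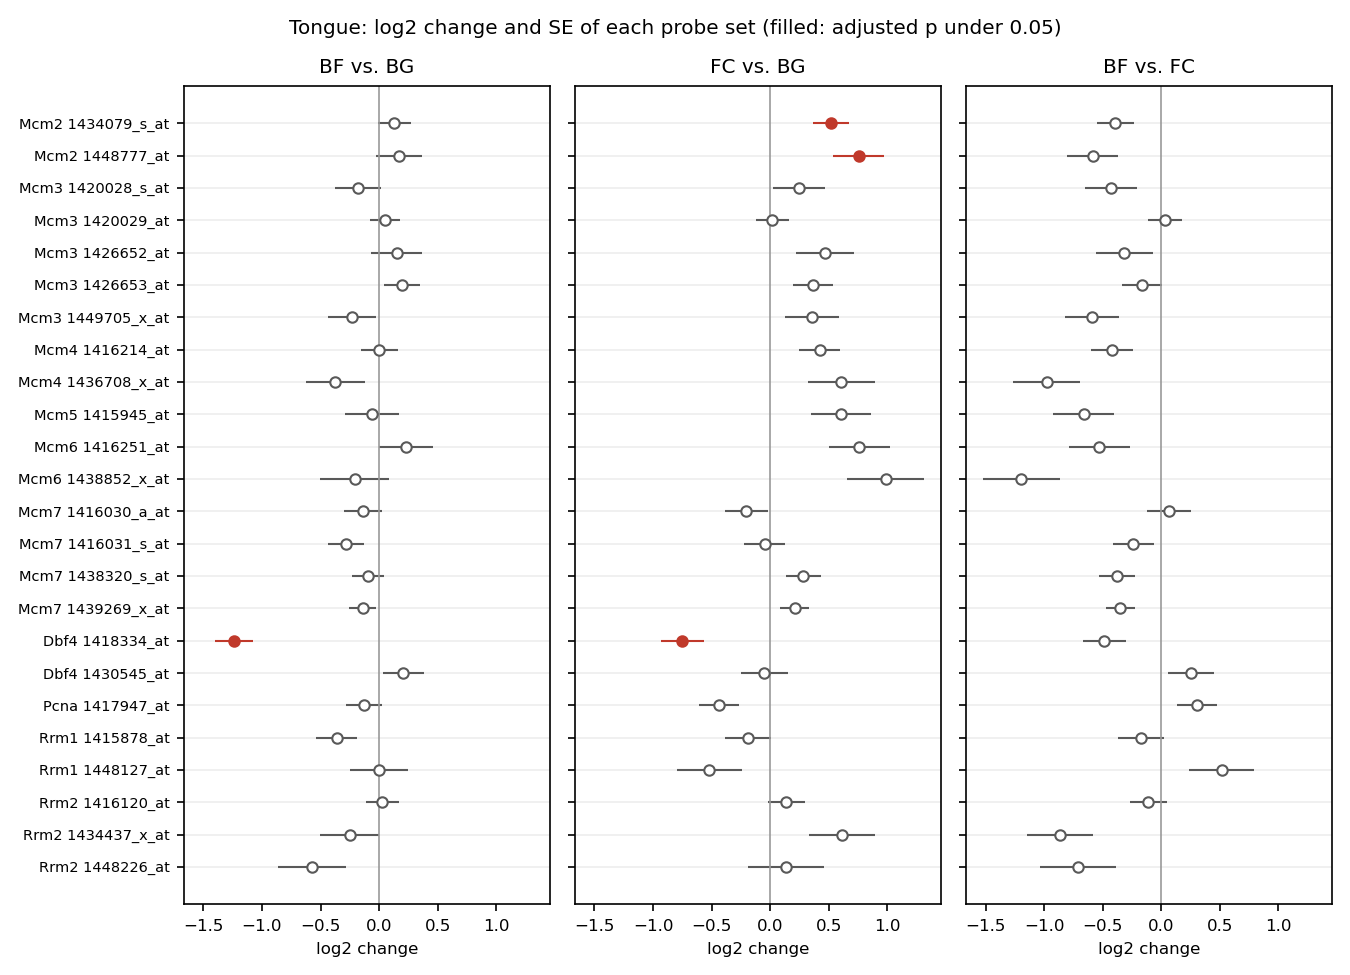
Log2 change (horizontal axes) of each of the 24 probe sets in tongue, in 3 panels that set BF against BG, FC against BG and BF against FC, with the standard error as bars. Filled points have an adjusted p under 0.05: Dbf4 1418334_at at -1.24 and -0.75 in the comparisons with BG, and both Mcm2 probe sets at 0.52 and 0.75 in FC vs. BG.

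The facility and habitat controls, which differ in housing on the ground, were compared next in tongue. Mcm2 rose and Dbf4 fell in FC vs. BG. Mcm2 1434079_s_at read 8.79 and 8.83 in FC tongues, against 8.31, 7.87 and 8.69 in BG tongues, and Mcm2 1448777_at read 6.71 and 6.85 in FC, against 6.18, 5.43 and 6.46 in BG. Both FC arrays lay above every BG array in each case, and the share of all probe sets separated in this way was not counted. The changes were 0.52 (SE 0.157, adjusted p = 0.0386) and 0.75 (SE 0.216, adjusted p = 0.0307). Dbf4 1418334_at fell by 0.75 (SE 0.184, adjusted p = 0.0138), the opposite direction to Mcm2.

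The other helicase genes read higher in FC tongues without passing. Mcm6 1416251_at read 8.33 and 8.36 in FC tongues, against 7.69, 6.93 and 8.14 in BG tongues, a change of 0.76 (adjusted p = 0.0692). Mcm6 1438852_x_at gave 0.99 (adjusted p = 0.0612), Mcm5 0.60 (adjusted p = 0.154) and Mcm4 1416214_at 0.42 (adjusted p = 0.144). Of the 16 Mcm changes 14 were positive, with a median of 0.39. The exceptions were 2 of the 4 probe sets of Mcm7, at -0.20 and -0.05. Pcna 1417947_at read 10.39 and 10.49 in FC tongues, against 10.75, 10.92 and 10.97 in BG tongues, a change of -0.44 (adjusted p = 0.118).

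In all, 2 member probe sets passed as higher, both of Mcm2, and 1 as lower in tongue FC vs. BG. These are 8.33% and 4.17% of the 24, against 5.13% and 4.33% of all probe sets. At an unadjusted p under 0.05 there were 11 of the 24, 9 higher and 2 lower, against 23.3% of all probe sets. The calls rested on single arrays. Without BG replicate 2, 0 members passed, and Mcm2 gave 0.31 and 0.46 (adjusted p = 0.225 and 0.177) and Dbf4 -0.63 (adjusted p = 0.0764). Without FC replicate 1, which leaves 1 FC tongue whose spread is taken from the other groups, 0 passed as well. Without BG replicate 3, 6 members passed as higher and 1 as lower, and those added were Mcm4 1416214_at, Mcm5 and both probe sets of Mcm6. Mcm6 1438852_x_at also passed without BF replicate 2 (adjusted p = 0.0397), where Pcna passed as lower (adjusted p = 0.0369), and without BG LD replicate 5 (adjusted p = 0.0196), where Mcm6 1416251_at passed too (adjusted p = 0.0326). Dbf4 and Mcm2 1434079_s_at missed the threshold without BG replicate 1 (adjusted p = 0.0547 and 0.0756), and Dbf4 without FC replicate 1 (adjusted p = 0.219). The Mcm2 probe sets also missed it without FC replicate 2 (adjusted p = 0.19 and 0.187).

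Flown tongues were then set against facility tongues. Of the 24 changes in BF vs. FC 19 were negative, with a median of -0.38 against -0.01 over all probe sets, but 0 members passed, where 1.16% of all probe sets passed as higher and 1.08% as lower. At an unadjusted p under 0.05 there were 12 of the 24 probe sets, all lower, and 16.1% of all probe sets. Mcm6 1438852_x_at read 5.69, 6.36 and 5.20 in BF tongues, against 7.08 and 6.81 in FC tongues, and gave the smallest adjusted p, 0.059, with a change of -1.19 (SE 0.33). Mcm4 1436708_x_at read 6.48, 7.31 and 6.20 in BF tongues, against 7.72 and 7.56 in FC tongues (change -0.98, adjusted p = 0.0744). Rrm2 1434437_x_at read 6.71, 7.40 and 6.35 in BF tongues, against 7.59 and 7.78 in FC tongues (change -0.87, adjusted p = 0.112). For Mcm5 the BF tongues read 4.93, 5.25 and 5.33, against 5.84 and 5.82 in FC tongues (change -0.66, adjusted p = 0.197). In each of these 4 probe sets every BF array lay below both FC arrays. How many of all probe sets separate in this way was not counted. Probe sets that end in _x_at share probes with other sequences by the maker's naming, so their values may hold signal from those.

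BF replicate 2 held the highest value of its group in Mcm4, Mcm6 and Rrm2 of the probe sets above. Without this array 4 members passed as lower in BF vs. FC, namely Mcm4 1436708_x_at, Mcm6 1438852_x_at, Rrm2 1434437_x_at and Rrm2 1448226_at, with changes between -1.50 and -1.15. Without BG LD replicate 5, an array of neither group whose spread enters the shared estimate, Mcm4 1436708_x_at (adjusted p = 0.0492) and Mcm6 1438852_x_at (adjusted p = 0.0152) passed. Without BG tongue replicate 2 Mcm5 passed (adjusted p = 0.0258). The comparisons of BF and of FC with BG share the BG arrays, and that of BF vs. FC shares arrays with both, so the 3 are not independent.

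**Figure D3:**
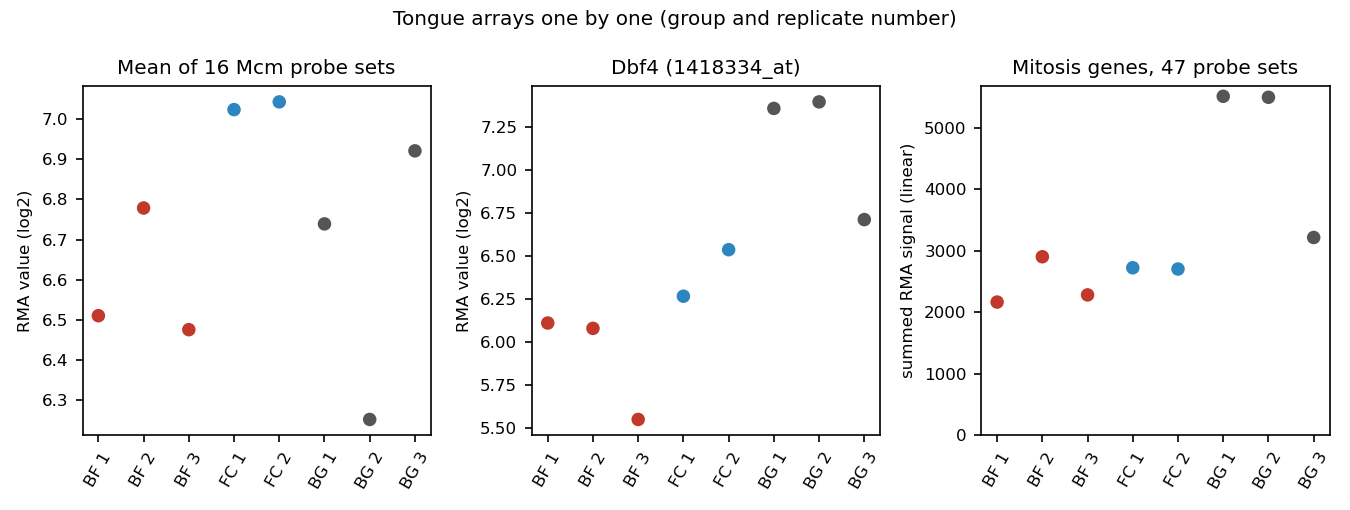
The 8 tongue arrays one by one, with BF, FC and BG replicates on the horizontal axes: the mean log2 value of the 16 Mcm probe sets, the log2 value of Dbf4 1418334_at, and the summed linear signal of the 47 probe sets of the mitosis list. BG 2 has the lowest Mcm mean, 6.25, and the highest Dbf4 value, 7.40, and the 3 BG arrays have the highest mitosis sums, 3217 and above.

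Genes of mitosis, counted from a list, fell in tongue in both comparisons with BG, as Dbf4 did. Of 47 probe sets for 28 mitosis genes, 0 passed as higher and 20 as lower in BF vs. BG, with a median of -0.75, and 1 passed as higher and 12 as lower in FC vs. BG, with a median of -0.57. Over all probe sets 0.354% passed as higher and 0.473% as lower in BF vs. BG, and 5.13% and 4.33% in FC vs. BG. Ccnb2, a cyclin of the mitotic kinase, fell by 1.88 in BF vs. BG (adjusted p = 0.0011) and by 2.02 in FC vs. BG (adjusted p = 0.00022). Ect2, which drives cytokinesis, fell by 2.06, Cenpa, the histone of the centromere, by 1.74 and Birc5, a subunit of the chromosomal passenger complex, by 1.61 in BF vs. BG. The summed linear signal of the list was 2167, 2904 and 2284 in the BF tongues, 2725 and 2704 in the FC tongues, and 5514, 5498 and 3217 in the BG tongues. BG replicates 1 and 2 thus stood far above the rest, and the counts rested on them. Without BG replicate 1 there were 2 lower probe sets in BF vs. BG and 9 in FC vs. BG, without BG replicate 2 there were 3 and 8, and without BG replicate 3 there were 27 and 24. Median changes over the list stayed between -0.90 and -0.41 in these settings.

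Other genes of the replication fork were counted from lists. In tongue FC vs. BG 5.13% of all probe sets passed as higher and 4.33% as lower, the share to set beside the counts that follow. For polymerases, clamp loader and ligase, 3 of 48 probe sets passed as higher and 4 as lower. The genes named had the smallest adjusted p of their lists. The flap nuclease Dna2 rose by 0.81 in 1 of its 2 probe sets (adjusted p = 0.013) and the ligase Lig1 by 0.58 (adjusted p = 0.024). The small polymerase subunits Pold4 and Pole4 fell by 0.71 (adjusted p = 0.0061) and 0.86 (adjusted p = 0.012). The maintenance methylase Dnmt1 rose by 0.72 (adjusted p = 0.0081) and Uhrf1, which recruits it to the fork, by 1.05 (adjusted p = 0.013), while the histone chaperone Asf1a fell by 0.48 (adjusted p = 0.022), of 8 measured genes of chromatin assembly and methylation. Among 18 genes of origin licensing and firing 0 rose and 3 fell, namely Gins4, a subunit of the active helicase (-0.48), and the origin recognition subunits Orc4 (-0.56) and Orc5 (-0.48). Of 24 regulators of the step into S phase 4 rose and 0 fell, namely the phosphatase Cdc25a (0.62) and the cyclins Ccnd1 (1.07), Ccnd2 (0.79) and Ccnd3 (0.64). Of 11 genes of deoxynucleotide supply, the thymidylate synthase Tyms rose in 1 of 3 probe sets (0.45, adjusted p = 0.043) and the kinase Cmpk1 fell (-0.63, adjusted p = 0.0096).

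In tongue BF vs. BG none of these 5 lists had a probe set that passed, where 0.354% of all probe sets passed as higher and 0.473% as lower. In tongue BF vs. FC 1 probe set passed as lower in each of 3 lists, Dna2 (-0.91, adjusted p = 0.014), Dnmt1 (-0.71, adjusted p = 0.019) and the S phase kinase Cdk2 (-0.56, adjusted p = 0.025), and 0 passed as higher. Over all probe sets 1.16% passed as higher and 1.08% as lower in BF vs. FC. Medians over the 5 lists in that comparison lay between -0.18 for the regulators of the step into S phase and 0.04 for origin licensing.

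Summed marker levels of other cells are given for tongue, where few of their probe sets passed outside the muscle fibre list. Such sums follow the brightest probe sets, and with 2 or 3 arrays a group they can separate by chance. Keratinocyte markers, over 21 probe sets, summed to 92922 to 100743 in BF tongues, 109032 to 116284 in FC tongues and 101974 to 106054 in BG tongues, so BF lay lowest and FC highest without overlap. Krt17 fell by 1.18 in BF vs. BG (adjusted p = 0.0011) and by 0.77 in FC vs. BG (adjusted p = 0.01), in 1 of its 2 probe sets. For Dsp, 1 of 3 probe sets passed as lower in FC tongues (-0.94, adjusted p = 0.049). Of the 21 keratinocyte changes 17 were positive in FC vs. BG, with a median of 0.09, and 8 in BF vs. BG, with a median of -0.07. Macrophage markers summed to 4723 to 5140 in BF, 4982 to 5881 in FC and 5971 to 7036 in BG tongues, with BG above both, and 0 of 17 probe sets passed. Endothelial markers summed to 1538 to 1771 in BF, 1596 to 1751 in FC and 1410 to 1455 in BG tongues, with BG below both, and 1 of 10 probe sets passed, as higher in FC vs. BG. Fibroblast markers summed to 17043 to 18320 in BF, 25798 to 26010 in FC and 22180 to 24114 in BG tongues, without overlap, and 0 of their 12 probe sets passed. Muscle fibre markers summed to 100382 to 132137 in BF, 111192 to 111741 in FC and 92255 to 108490 in BG tongues. The part of these cells in the values of the members was not tested, and in whole tissue fewer cells of a type and less RNA per cell cannot be told apart.

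In LD, where the same 3 comparisons were made, Pcna was the member that changed. Pcna 1417947_at read 9.90, 9.91, 9.98, 9.89 and 9.82 in BF muscles, 9.80, 9.60, 9.72, 9.82 and 10.04 in FC muscles, and 10.50, 10.27, 10.13, 10.33 and 10.04 in BG muscles. BF and FC lay below BG, with the highest FC and the lowest BG value both at 10.04. Pcna fell by 0.46 in FC vs. BG (SE 0.119, adjusted p = 0.0207). In BF vs. BG the change was -0.35 (SE 0.119, adjusted p = 0.0625), which missed the threshold, and in BF vs. FC it was 0.10 (adjusted p = 0.77). Macrophage markers were also lower than in BG. Of their 17 changes 0 were positive in FC vs. BG (median -0.53, 3 passing as lower) and 0 in BF vs. BG (median -0.63, 2 passing as lower). The BG side of both rests in part on replicate 5, whose markers summed to 18348, where the other BG muscles had 4269 to 6711. These changes were not counted again without this array. This BG muscle had the lowest Pcna value of its group, 10.04, and replicate 1, with the next highest macrophage sum, had the highest, 10.50. Whether Pcna and the macrophage markers are linked was not tested.

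The FC vs. BG call of Pcna was lost without BG replicate 1 (adjusted p = 0.0677), BG replicate 4 (adjusted p = 0.0535), FC replicate 2 (adjusted p = 0.0629) or FC replicate 3 (adjusted p = 0.0551). BG replicate 5 stood apart in another way, with macrophage markers, over 17 probe sets, that summed to 18348, where the other BG muscles had 4269 to 6711, the BF muscles 2394 to 7227 and the FC muscles 2906 to 6233. Without this array Pcna fell by 0.41 in BF vs. BG (adjusted p = 0.0273), as it also passed without BF tongue replicate 1 (adjusted p = 0.0488) or 2 (adjusted p = 0.0169), and in FC vs. BG Mcm7 1416030_a_at passed beside Pcna, with -0.38 (adjusted p = 0.02). The same array held the highest LD values of Mcm6, 7.10 for 1416251_at and 5.04 for 1438852_x_at, where the other LD arrays reached 6.76 and 4.65. What part the macrophages had in these values was not tested.

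**Figure D4:**
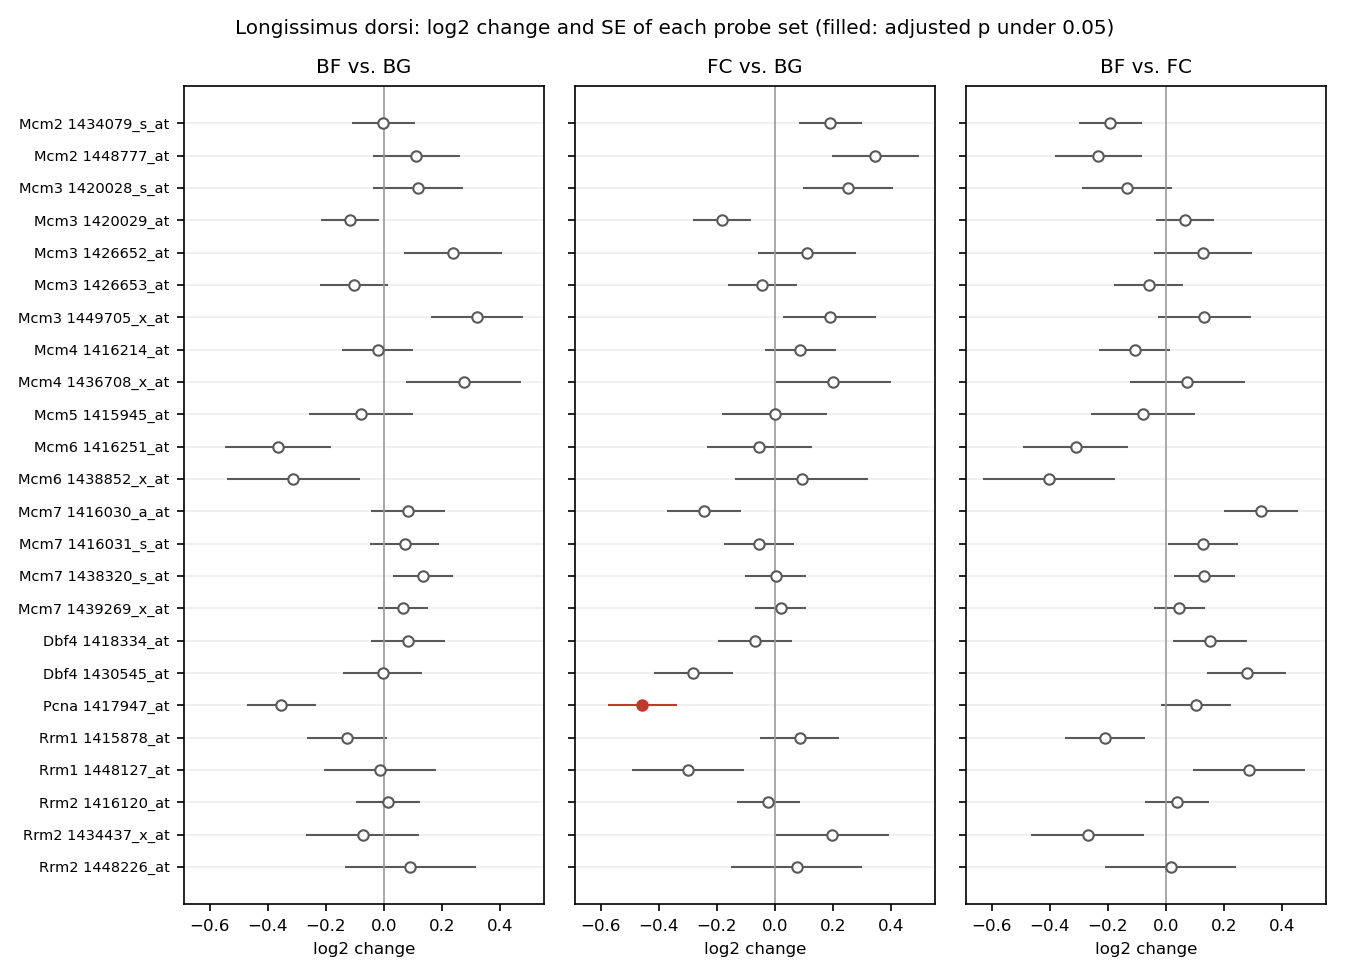
Log2 change (horizontal axes) of each of the 24 probe sets in *longissimus dorsi*, in 3 panels that set BF against BG, FC against BG and BF against FC, with the standard error as bars. The filled point, with an adjusted p under 0.05, is Pcna at -0.46 in FC vs. BG, and the Mcm changes lie between -0.40 and 0.35.

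In LD BF vs. BG 0 members passed, where 6.41% of all probe sets passed as higher and 3.83% as lower. In LD FC vs. BG 0 passed as higher and 1 as lower, against 6.79% and 2.16% of all. In LD BF vs. FC 0 passed, against 2.06% as higher and 1.6% as lower. The unadjusted p was under 0.05 for 1, 2 and 1 members in these 3 comparisons, against 24.9%, 24.5% and 15.9% of all probe sets. Member medians were 0.01, 0.01 and 0.04, and the changes ran from -0.46 to 0.35.

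The spread of the helicase genes over the LD arrays differed between probe sets. Mcm6 1438852_x_at had the widest, with 3.38 to 4.05 in BF, 4.03 to 4.65 in FC and 3.69 to 5.04 in BG muscles. Mcm5 1415945_at read 3.36 to 3.64 in BF, 3.34 to 4.04 in FC and 3.49 to 3.74 in BG muscles. Mcm2 1434079_s_at read 7.87 to 8.07 in BF, 8.08 to 8.22 in FC and 7.83 to 8.17 in BG muscles, with a change of -0.19 in BF vs. FC (adjusted p = 0.415) although all BF arrays lay below all FC arrays. Mcm7 1416030_a_at read 6.61, 6.76, 6.95, 6.85 and 6.76 in BF muscles, against 6.58, 6.35, 6.31, 6.51 and 6.54 in FC muscles, also without overlap (change 0.33, adjusted p = 0.186). How many of all probe sets separate without overlap in LD was not counted. For Dbf4 1418334_at the 3 LD comparisons gave 0.08, -0.07 and 0.15, and the intervals ended at -0.33 and 0.41. Rrm1 1415878_at gave -0.13 in BF vs. BG, with an interval from -0.41 to 0.16, and Rrm2 1434437_x_at gave -0.07, from -0.48 to 0.33.

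Of 24 regulators of the step into S phase, 4 genes rose and 1 fell in LD BF vs. BG. The inhibitor Cdkn1a, a p53 target that also binds Pcna, rose by 1.29 in BF vs. BG (adjusted p = 0.0023) and by 1.76 in BF vs. FC (adjusted p = 0.00029). The inhibitor Cdkn1b rose by 0.55 (adjusted p = 0.019) and the pocket protein Rbl2, which represses E2F targets, by 0.87 (adjusted p = 0.0025) in BF vs. BG. Cdc25a, which acts in the opposite sense by activating Cdk2, rose by 0.46 (adjusted p = 0.011). In all 8 of 41 probe sets of this list passed as higher and 1 as lower, where 6.41% and 3.83% of all probe sets did, and 18 of the 41 changes were positive, with a median of -0.05. The cyclin Ccnd1 fell in BF vs. FC in 1 of its 3 probe sets (adjusted p = 0.01).

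The replication lists in LD BF vs. BG are set beside 6.41% of all probe sets that passed as higher and 3.83% as lower. Of 28 licensing probe sets 3 passed as higher and 3 as lower, with Orc2 at 0.58, Gins1 at 0.50, Mcmbp, an MCM binding protein, at 0.28 and Orc3 at -0.36. Among polymerases, clamp loader and ligase 0 of 48 passed as higher and 3 as lower, and for deoxynucleotide supply 0 of 22 and 2. Rpa3, a subunit of the single strand binding protein (-0.75), and Prim1, the primase (-0.43), were the genes that fell among polymerases, clamp loader and ligase, and Nme1 (-0.72) and Dtymk (-0.38), nucleotide kinases, among deoxynucleotide supply. Of 47 mitosis probe sets 0 passed as higher and 2 as lower, with Aurka, a spindle kinase, at -0.85 (adjusted p = 0.0053).

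The change of Dbf4 in flown mice differed between the muscles. The difference of the BF vs. BG changes, tongue minus LD, was -1.32 for 1418334_at (SE 0.208, adjusted p = 0.0195, second of all probe sets by p-value). It was lost without BF tongue replicate 3 (adjusted p = 0.0706) or BG tongue replicate 1 (adjusted p = 0.0988). The LD mean of this probe set, 4.59, was at percentile 20.4 of all probe sets, and low values are compressed, so a fall in LD would show less. Of the members 0 passed as higher and 1 as lower in this test, against 0.0133% and 0.159% of all probe sets, and with more than 2-fold in addition 1 as lower, against 0.0796%. For Mcm3 1449705_x_at the difference was -0.55 (adjusted p = 0.397) and for Mcm6 1416251_at 0.59 (adjusted p = 0.432).

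For FC vs. BG the same difference between muscles passed for 0 members, against 0.221% of all probe sets as higher and 0.0796% as lower. The smallest adjusted p was that of Dbf4 1418334_at, 0.253, with -0.68, and it passed without BG tongue replicate 3, at -0.91 (adjusted p = 0.0484). Of the 16 Mcm differences 15 were positive, with a median of 0.33 against 0.01 over all probe sets, and Mcm6 1416251_at gave 0.81 (adjusted p = 0.361). An effect of housing on the helicase genes that differed between the muscles was therefore not detected with these arrays.

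The largest differences of these genes were between the muscles. In tongue the S phase subunit Rrm2, Dbf4, Mcm5 and Mcm6 stood several-fold above LD in all 3 housings. Rrm2 1434437_x_at read 6.35 to 7.40 in BF tongues, 7.59 and 7.78 in FC tongues and 6.42 to 7.45 in BG tongues, and 4.41 to 5.13 in all LD arrays. The ratio of tongue over LD was 4.53 in BF, 6.84 in FC and 5.13 in BG mice. For Mcm5 1415945_at the fitted ratio was 3.05, 4.57 and 3.01, with tongue arrays at 4.35 and above and LD arrays at 4.04 and below. Its LD mean of 3.61 was at percentile 7.22 of all probe sets, as low as the probe sets described as dim, and the table holds no detection calls, so this ratio is not exact. For Mcm6 1438852_x_at the ratio was 3.82, 6.61 and 3.56, with a low LD mean of 4.06, at percentile 12.9. For Dbf4 1418334_at it was 2.37, 3.69 and 5.93. Other probe sets of these genes differed less. The brighter Mcm6 1416251_at averaged 7.82, 8.35 and 7.59 in BF, FC and BG tongues, and 6.12, 6.43 and 6.48 in LD. Rrm2 1416120_at averaged 4.65, 4.76 and 4.62 in these tongues, and 4.38, 4.34 and 4.36 in LD.

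**Figure D5:**
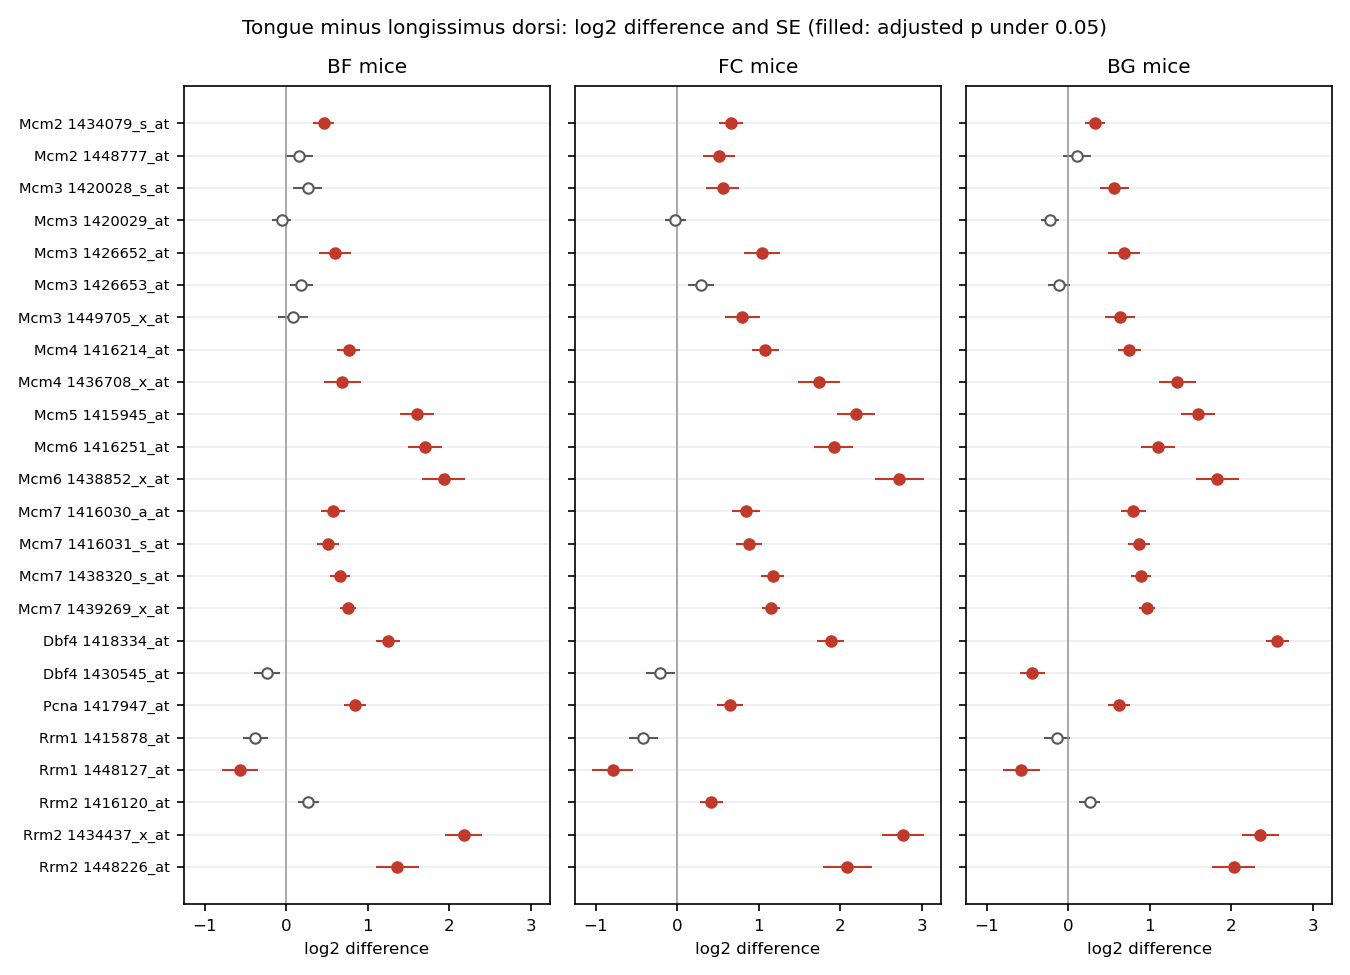
Log2 difference of tongue minus *longissimus dorsi* (horizontal axes) of each of the 24 probe sets in BF, FC and BG mice, with the standard error as bars. Filled points have an adjusted p under 0.05, 15, 19 and 17 of them to the right of 0, and Rrm1 1448127_at is the one to the left of 0 in all 3 groups.

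Of the 24 probe sets 15 passed as higher and 1 as lower in tongue of BF mice, against 18.3% and 27.5% of all probe sets. In FC mice 19 passed as higher and 1 as lower, against 19.1% and 27.7%, and in BG mice 17 and 2, against 19.8% and 34.3%. In percent of the members the higher calls were 62.5 in BF, 79.2 in FC and 70.8 in BG mice. With more than 2-fold in addition 6 members passed as higher in BF mice, 11 in FC mice and 7 in BG mice, against 7.6%, 8.6% and 8.26% of all. Member medians were 0.59, 0.86 and 0.72, where all probe sets had -0.10, -0.13 and -0.18.

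Pcna and Mcm7 also rose in tongue, by smaller amounts. Pcna 1417947_at read 10.39 to 11.23 over the tongue arrays and 9.60 to 10.50 over the LD arrays, with differences of 0.85 in BF, 0.65 in FC and 0.63 in BG mice (adjusted p = 2.22e-05, 0.00181 and 0.000674). The 4 probe sets of Mcm7 gave 0.51 to 0.76 in BF, 0.84 to 1.17 in FC and 0.80 to 0.96 in BG mice, all past the threshold. Mcm4 1416214_at gave 0.77, 1.08 and 0.75, again all past it.

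Rrm1, the large subunit of the same enzyme as Rrm2, went the other way. Rrm1 1448127_at read 6.33, 7.02 and 6.47 in BF tongues, 5.90 and 6.28 in FC tongues and 6.31, 6.73 and 6.79 in BG tongues, against 6.37 to 7.58 in LD. It fell by 0.56 in tongue of BF mice (adjusted p = 0.0425), by 0.79 in FC mice (adjusted p = 0.0138) and by 0.57 in BG mice (adjusted p = 0.034). The threshold was missed in 8, 3 and 8 of 30 alternative settings. These settings include the replicate block, which does not compare the muscle means. Rrm1 1415878_at gave -0.38 in BF, -0.41 in FC and -0.14 in BG mice, none past the threshold (adjusted p = 0.0571, 0.0652 and 0.463).

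Probe sets of 1 gene did not always move alike. Of the 5 probe sets of Mcm3, 1426652_at passed as higher in tongue in all 3 housings (0.60 in BF, 1.04 in FC and 0.69 in BG mice). Mcm3 1420028_s_at and 1449705_x_at passed in FC and BG mice only, at 0.27 and 0.08 in BF mice. Mcm3 1420029_at and 1426653_at passed in none of the 3, and 1420029_at was dim, at 3.33 to 3.71 in tongue. Mcm2 1434079_s_at passed in all 3 housings (0.46, 0.66 and 0.33), while Mcm2 1448777_at passed in FC mice alone (0.51, adjusted p = 0.0378). Rrm2 1416120_at passed in FC mice alone too (0.42, adjusted p = 0.0211), where Rrm2 1448226_at passed in all 3 (1.36, 2.09 and 2.03). The dim Dbf4 1430545_at passed as lower in BG mice (-0.44, adjusted p = 0.0231), opposite to 1418334_at.

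Epithelial markers separated the muscles far more than the members did. Keratinocyte markers summed to 92922 and above in every tongue array and to 805 and below in every LD array, and 18, 19 and 19 of their 21 probe sets passed as higher in tongue of BF, FC and BG mice. Muscle fibre markers summed to 92255 to 132137 in tongue and 169718 to 190747 in LD. Mitosis genes passed as higher in tongue with 29, 31 and 34 of 47 probe sets in BF, FC and BG mice, and as lower with 3, 6 and 7, with medians of 0.58, 0.74 and 1.14. Satellite cell markers passed as higher with 0 of 10 probe sets in all 3, and 4, 5 and 4 passed as lower. Over all probe sets 18.3%, 19.1% and 19.8% passed as higher and 27.5%, 27.7% and 34.3% as lower. Which cells of the tongue held the replication transcripts was not tested.

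Helicase genes varied together between tongue arrays of a group. With each gene taken by its brightest probe set and each value as the deviation from its group mean, the 15 pairs of Mcm genes had Pearson correlations between 0.60 and 0.98 over the 8 tongue arrays, with a median of 0.86. In LD, over 15 arrays, they lay between -0.61 and 0.48, with a median of 0.14. The tongue values rested on BG replicate 2, without which the 7 remaining arrays gave -0.31 to 0.97 with a median of 0.40. Pairs of an Mcm gene and another member had a median of 0.35 in tongue and 0.07 in LD. The arrays were normalised together, and deviations within a group of 2 arrays mirror each other, so these values are a description only.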

How the data were processed

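RNA of 23 tissue samples was hybridised to Affymetrix Mouse Genome 430A arrays, 1 sample per array. The authors deposited log2 values per probe set, made from the scanned intensities with RMA (background correction, quantile normalisation, median polish) in Partek. RMA sets all arrays to 1 distribution, so only changes relative to the rest are measured, and low values are compressed. Precision is limited by the number of arrays, and depth does not apply.

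Groups came from the sample titles. With limma (version 3.58.1, R 4.3.3) 1 linear model of 6 groups was fitted to all 22626 probe sets, without filter, with 17 residual degrees of freedom. Benjamini-Hochberg adjustment ran over all probe sets in each of 11 comparisons, and an adjusted p under 0.05 passed. The code was tested on simulated data. Nothing in the labels says which samples shared a litter or a day, so p-values measure the spread between these samples.

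Probe sets were named through the platform annotation: 20380 name 1 gene, 691 several and 1555 none. Each member probe set is named. From 6 pathway lists up to 4 genes with the smallest adjusted p in a comparison were named, and 7 marker lists gave levels. Levels of a list are sums of linear values. Members and lists were chosen with earlier results of these data known. The alternatives were each muscle fitted alone, no moderation, trend and robust moderation, brighter probe sets, quantile normalisation within a muscle, median centring, array weights, a replicate block, a 2-fold limit and leaving out each array in turn.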

Additional observations from a re-analysis of the deposited data

Results flagged for a closer look

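Dbf4 1418334_at differed between the muscles in its BF vs. BG change: that in tongue minus that in *longissimus dorsi* was -1.32 (limma adjusted p = 0.0195). This call was lost without BF tongue replicate 3 or BG tongue replicate 1. The study had picked the probe set on its tongue change in these same arrays, and its level in *longissimus dorsi* was low (mean 4.59). Of 72 groups of 5 *longissimus dorsi* arrays, 1 for each probe set and housing with 1 value set against the other 4, 3 held an array apart from the rest. Mcm5 1415945_at was lowest in BF replicate 3, at 3.36, Rrm2 1448226_at was highest in FC replicate 3, at 4.64, and Rrm2 1416120_at was lowest in BG replicate 3, at 4.15. Chance gives such a value in about 1 of 20 groups.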

How the results depend on the processing

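Of the members' calls, Dbf4 1418334_at in tongue BF vs. BG passed in all 31 alternatives in which it was tested (adjusted p up to 0.0416), and it was not among the brighter probe sets. No member call changed sign. With each muscle fitted alone, 0 members passed in tongue FC vs. BG and 1 in *longissimus dorsi* BF vs. BG (Pcna, adjusted p = 0.0351). Restricting the fit to the probe sets above the median level kept 9 of the 24 members, and 0 passed in tongue BF vs. BG, 1 in tongue FC vs. BG, 1 in *longissimus dorsi* BF vs. BG, 0 in the muscle difference for BF vs. BG, and 9, 8 and 8 between muscles in BF, FC and BG mice. Of all probe sets in that fit 0.91%, 17.2%, 19.8% and 0.433% passed in the first 4 of these, and 63%, 62.6% and 62.8% between muscles. Array weights gave 3, 7 and 10 members in tongue for BF and FC against BG and for BF against FC, 2, 2 and 1 in the same comparisons of *longissimus dorsi*, and 2 in the muscle difference for BF vs. BG. With these weights 8.13%, 21.1% and 8.98% of all probe sets passed in tongue, 22.5%, 13.3% and 7.39% in *longissimus dorsi*, and 4.65% in that muscle difference. The 2-fold limit left 0 in FC vs. BG of either muscle, and 6, 11 and 7 between muscles in BF, FC and BG mice. Leaving out each array in turn gave 1 to 2, 0 to 7 and 0 to 4 members in tongue for BF and FC against BG and for BF against FC, 0 to 1, 0 to 2 and 0 in *longissimus dorsi*, 0 to 1 in each muscle difference, and 14 to 17, 16 to 21 and 15 to 20 between muscles in BF, FC and BG mice. With the replicate block 1 member (Dbf4) passed in the muscle difference for FC vs. BG, where 0 passed without it. In tongue FC vs. BG 4 passed, where Mcm6 1416251_at was added (adjusted p = 0.0297). The other counts, those between muscles aside, were as without the block. Block terms were fitted within each muscle, so between muscles this fit compares single replicate numbers and not the muscle means. Its counts there, 12, 16 and 14 in BF, FC and BG mice, are therefore no check on the differences between muscles. Under the block 2.35% of all probe sets passed in tongue BF vs. BG and 14% in tongue FC vs. BG, against 0.826% and 9.45% without it. Arrays of the same number correlated over 0.1 in 11 of 22 pairs between groups of a muscle (median 0.10), against 17 of 74 pairs of different numbers (median -0.05). Of the arrays, 4 of 8 in tongue and 8 of 15 in *longissimus dorsi* correlated best with their own number. The labels do not say what the number stands for, so the main model left it out. Whether it marks a factor shared by these arrays was not tested. Leaving out BG tongue arrays for the mitosis counts and the Mcm correlations was chosen after seeing the data. The cause of these shifts was not tested. The tongue groups hold 2 or 3 arrays, which limits what could be detected there.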

Other observations

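Outside the members, the genes whose log2 levels correlated most with the mean of the members (the brightest probe set of each, standardised over the arrays) over the 8 tongue arrays were F2 (r = 0.97), Zfpm2 (0.96), Fen1 (0.94), Rad51ap1 (0.92) and Cldn6 (0.92). Fen1 trims the flaps of lagging strand fragments and Rad51ap1 serves in recombination, while F2 and Zfpm2 read at most 4.37 on every tongue array. Over the 15 *longissimus dorsi* arrays they were Sec22b (0.81), Nat9 (0.79), Mcm3ap (0.79), Nudc (0.79) and Crhr2 (0.78). These are the highest values over all probe sets that name 1 gene and carry no test. The arrays of all 3 housings enter, so differences between housings are part of these correlations.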
